A study of Xenopus laevis with 9 samples.

Results

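The genes described here were those with less RNA both when SoxB1 factors were depleted from blastula cells and when cells of the same origin were examined later as neural plate border. RNA-seq counts of Xenopus laevis animal pole explants were used, in 3 groups of 3 libraries. Members were selected on these measured values: a gene was a member when its mean wild-type level at stage 9 was at least 3 CPM (counts per 1000000 counts of its library), its morphant level was at most 0.6 times that of the wild-type library with the same replicate number in all 3 pairs, and its mean neural plate border level was at most 0.67 times the wild-type mean. Of 51061 rows in the count tables, 16313 reached the minimum level, 163 of these also met the morphant condition, and 64 met the whole rule. Because the members were chosen by these levels, the values that follow are a description of them and not a test.

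The first group, St9 WT, was blastula explants from wild-type embryos at stage 9 with no treatment. The second, St9 morphant, was stage 9 explants from wild-type embryos injected with soxb1 morpholinos, which the study's methods describe as translation-blocking oligonucleotides against sox2 and sox3. The third, St11.5 NPB, was explants at stage 11.5 that carried the cell type neural plate border and the treatment Wnt8a +Chordin mRNA in their labels, while the methods also describe induction by small molecules, so the treatment was taken as labelled. Each library came from pooled explants. No library with a control morpholino was analysed, so injection and SoxB1 depletion cannot be told apart, and stage and treatment cannot be told apart in the NPB libraries.

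SoxB1 proteins (Sox1, Sox2 and Sox3) are HMG-box transcription factors that help to hold early embryonic cells and neural progenitors undifferentiated. The animal pole of the blastula gives rise to ectoderm, and the neural plate border forms between neural plate and epidermis and yields neural crest and placodes. Some genes of the blastula stay on in border cells and others are turned down as development proceeds. Xenopus laevis is allotetraploid, and many genes have a copy on each subgenome, with the suffix .L or .S. Among the members 26 carried .L, 20 carried .S and 18 had no suffix.

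The libraries held between 25796466 and 48839143 counts, so 3 counts corresponded to between 0.0614 and 0.116 CPM. Genes of a border list (pax3, zic1, msx1 and others) summed to between 640 and 715 CPM in wild type and between 2422 and 3713 CPM in NPB, and 22 of its 28 rows tested rose in NPB with edgeR. The morpholinos block translation, so RNA gave no check of the depletion, and the mean level of sox3.S was 492 CPM in St9 WT explants and 732 CPM in those of morphants. Wild-type and morphant libraries with the same replicate number deviated together from their group means (r between 0.842 and 0.856, against -0.455 to -0.385 for unlike numbers), and were treated as pairs. The rows of mesoderm and endoderm markers summed to between 157 and 277 CPM in wild type and between 297 and 370 CPM in morphants. In NPB the sum was between 373 and 602 CPM. By row, 13 of the 29 tested against wild type fell in NPB and 8 rose with edgeR (26.7% and 26.9% of all genes). Their median log2 fold change was -1.01. This list holds wnt8a and the NPB label names Wnt8a mRNA, and the part of injected RNA in the sum was not tested. Of the list's 59 rows, 4 (mespa.L, mespa.S, nodal3.1.L and myf5.S) had no count at stage 9. In a list of p53 response genes, 11 of 28 rows tested rose in morphants in a paired edgeR fit and 1 fell, against 5.75% and 6.71% of all genes, and no row of it was called without the pairing. The list summed to between 1213 and 1581 CPM in wild type and between 1353 and 1776 CPM in morphants. The part of these genes in the results was not tested.

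The members' mean wild-type levels lay between 3.16 and 193 CPM, with a median of 15.5. Relative to wild type, their mean morphant level was between 1.37% and 58.4% (median 38.1%) and their mean NPB level between 3.32% and 64.2% (median 24.9%). In bulk RNA from explants, fewer cells of a type and less RNA per cell cannot be told apart. Together they made up between 2096 and 2209 CPM of each wild-type library, between 692 and 891 CPM of each morphant library and between 483 and 647 CPM of each NPB library. In 9 members the morphant mean was at most 10% of wild type, in 11 the NPB mean was, and 12 members were at or under 25% in both. Only nedd9.S and LOC108711414 were at most 10% of wild type in both. At or under 25% were 19 members in morphants and 32 in NPB. Nothing is read from either overlap.

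**Figure D1:**
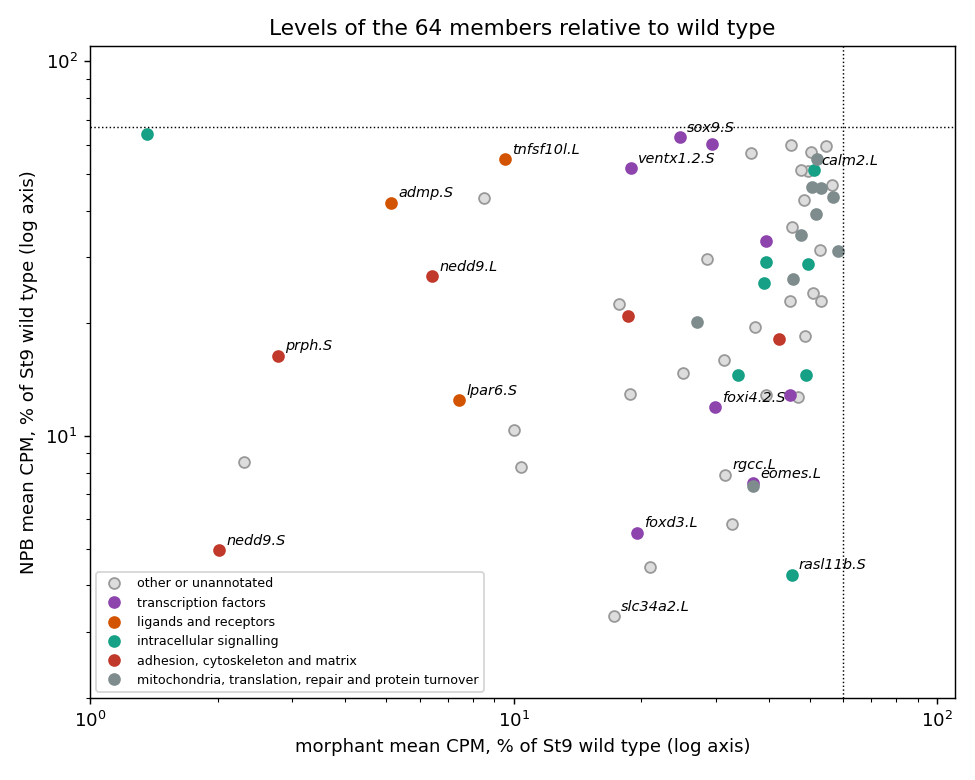
Mean CPM of each of the 64 members in St9 morphants (horizontal) and in St11.5 NPB (vertical) as a percentage of its St9 wild-type mean, both on log axes, coloured by what the gene is known to do; dotted lines mark the limits of the rule. The nedd9, prph and admp copies lie far to the left, whereas rasl11b.S and slc34a2.L lie low in NPB with less reduction in morphants.

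Morphant and wild-type levels did not overlap for 56 of the 64 members (87.5%), against 5.58% of the 16313 rows at the same minimum level that were lower without overlap. NPB and wild-type levels did not overlap for 54 members (84.4%), where 58.9% of those rows did the same. Both contrasts were part of the rule, so nothing is read from either count. The rule's NPB condition was met by 39.3% of the 163 SoxB1-dependent rows and by 59.9% of all rows at the minimum. Its morphant condition was met by 0.999% of these rows and the whole rule by 0.392%. Meeting the NPB condition was therefore common in these libraries and meeting the morphant condition was rare. The conditions differ in strictness, with a limit of 0.67 on group means for NPB and of 0.6 in every pair for morphants. A morphant mean simply below the wild-type mean was found in 50.8% of the rows at the minimum.

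Scaling mattered for the NPB comparison. Over the rows at the minimum, the median NPB level was 53.2% of wild type in CPM (-0.91 on the log2 scale) and 82.3% after TMM scaling (-0.28), which sets library totals so that most genes keep their level. TMM factors were between 0.672 and 0.785 in NPB libraries and between 1.14 and 1.2 at stage 9. After this scaling the members' NPB levels were between 4.95% and 99.4% of wild type with a median of 39.4%, and 43 members (67.2%) did not overlap with wild type, against 39.9% of rows. The rule applied to the scaled values kept 47 of the 64. No member's mean was above wild type on either scale. The fitted log2 fold changes of sox9.S, hal.2.L and LOC108698547 in NPB were 0.01, 0.03 and 0.02. Members with a mild NPB reduction, such as hal.2.L at 59.5% in CPM and 99.4% after scaling, did not meet the rule on the scaled values.

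**Figure D2:**
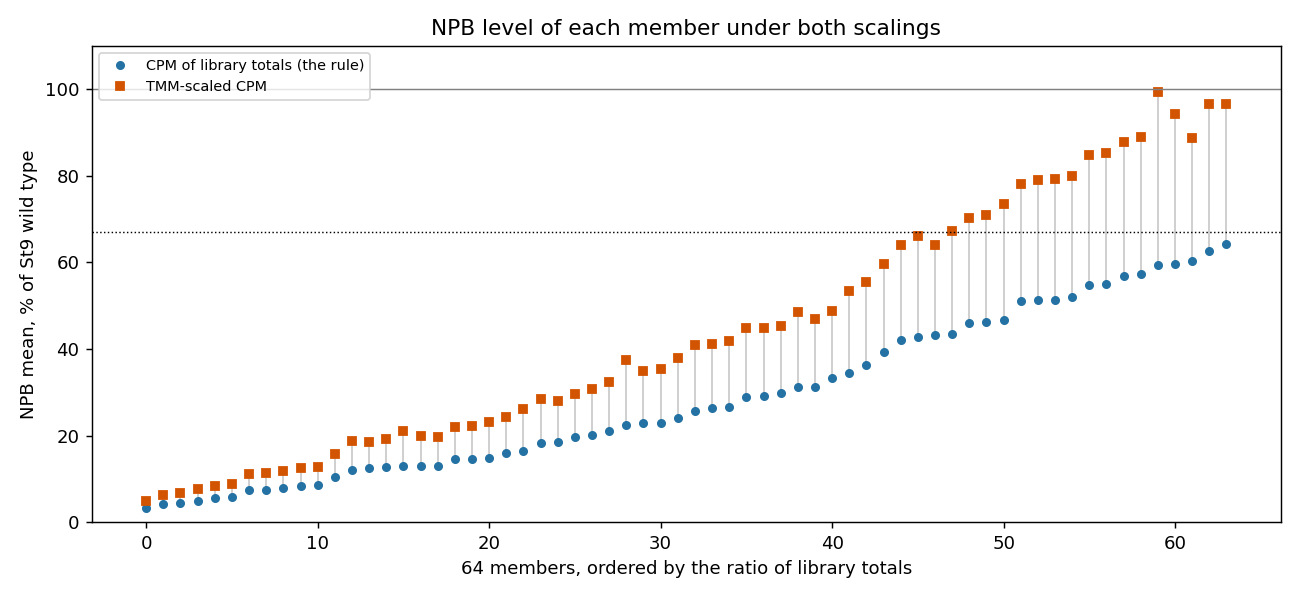
Mean NPB level of each member as a percentage of its St9 wild-type mean, from CPM of library totals (circles) and TMM-scaled CPM (squares), in order of the first; the dotted line is the limit of the rule at 67% and the grey line equality. All 64 squares lie above their circles, and 17 lie above the limit.

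When the counts of morphant and wild type were fitted across 21659 genes with edgeR's quasi-likelihood test without regard to pairs, 0 members and 0.0% of genes were called lower at an adjusted p of 0.05. At an unadjusted p under 0.05 there were 58 members, where 3.15% of all genes were lower at that level, and DESeq2 called 46 members and 1.19% of all genes lower. With the replicate number as a block, edgeR called 60 members lower, where 6.71% of all genes were lower and 5.75% higher. The members not called were rgcc.L, foxi4.2.S, sox9.S and Xelaev18003712m, and 54 were called lower whichever pair was left out. For NPB against wild type 40 members were called lower (62.5%), against 26.7% of 21981 genes. The rule chose the members on both of these contrasts, so nothing is read from the counts of members called. Wild-type levels of the members themselves varied, with a median coefficient of variation of 31.8% against 17.5% over all rows at the minimum. It was 29.7% over the other SoxB1-dependent rows, so this was not particular to the members. Replicate 3 had the lowest wild-type level in 34 of the 64 members (53.1%), against 35.3% of all rows at the minimum.

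The 8 transcription factors among the members came from a few families. The forkhead copies foxi4.2.S and foxi4.2.L, related to the foxi genes of non-neural ectoderm, were both members. The foxi4.2.S level was 75.5, 105 and 163 CPM in wild-type replicates 1 to 3, 17.4, 50.2 and 35.0 CPM in morphants, and 16.2, 12.3 and 12.6 CPM in NPB. Values of single libraries are given in this order for every gene. For foxi4.2.L the values were 34.9, 41.0 and 109 CPM in wild type, 15.0, 22.4 and 45.7 in morphants, and 15.6, 4.2 and 3.99 CPM in NPB. Both copies were highest in wild-type replicate 3. The morphant value of foxi4.2.L in that replicate exceeded the other wild-type values, so its groups overlapped although each pair fell within the limit. In NPB the means were 12% and 12.9% of wild type, and the ratio of foxi4.2.L was 0.0548 without replicate 1 of both groups and 0.260 without replicate 3.

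The forkhead gene foxd3, which acts in pluripotent blastula cells and later in neural crest, was represented by foxd3.L, at 13.7, 3.97 and 7.09 CPM in wild type. It was at 2.07, 1.29 and 1.48 CPM in morphants and at 0.271, 0.30 and 0.799 CPM in NPB, or 5.53% of wild type, with no overlap between any of the 3 groups. The neighbouring genes foxd4l1.1.L and foxd4l1.2.L, forkhead factors of early neural ectoderm, are separated by 1 gene in RefSeq's v10.1 table. Their NPB libraries disagreed: foxd4l1.1.L was at 0.380 CPM in NPB replicate 1 and at 24.2 and 21.9 CPM in the other NPB libraries. Its wild-type levels were 58.8, 29.0 and 52.0 CPM and its morphant levels 26.6, 15.0 and 13.6 CPM. The same library was low for foxd4l1.2.L (0.488 CPM, against 7.24 and 15.7 CPM), whose NPB mean was 1.40 times wild type without replicate 1 of both groups. NPB replicate 1 was the lowest of its group for 42 of the 64 members and for 9023 of the 16313 rows. These genes were chosen for description after their values were seen.

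The SoxE factor sox9.S, a regulator of neural crest, was at 17.6, 5.0 and 5.91 CPM in wild type, at 2.07, 2.18 and 2.79 in morphants and at 5.39, 7.18 and 5.34 CPM in NPB. Only wild-type replicate 1 stood above all NPB values, and without replicate 1 of both groups the NPB mean was 1.15 times wild type. The homeobox gene ventx1.2.S, of the Ventx family that responds to BMP, was at 9.42, 9.55 and 3.48 CPM in wild type and at 1.67, 1.99 and 0.592 CPM in morphants. Its NPB levels of 2.95, 2.70 and 6.0 CPM overlapped with wild type. The T-box gene eomes.L, known for mesendoderm, was near the minimum level, at 1.98, 5.43 and 2.24 CPM in wild type, 1.02, 1.52 and 1.02 in morphants and 0.0542, 0.30 and 0.369 CPM in NPB. Over the transcription factors the NPB level was thus lowest for foxd3.L and eomes.L and nearest to wild type for sox9.S.

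**Figure D3:**
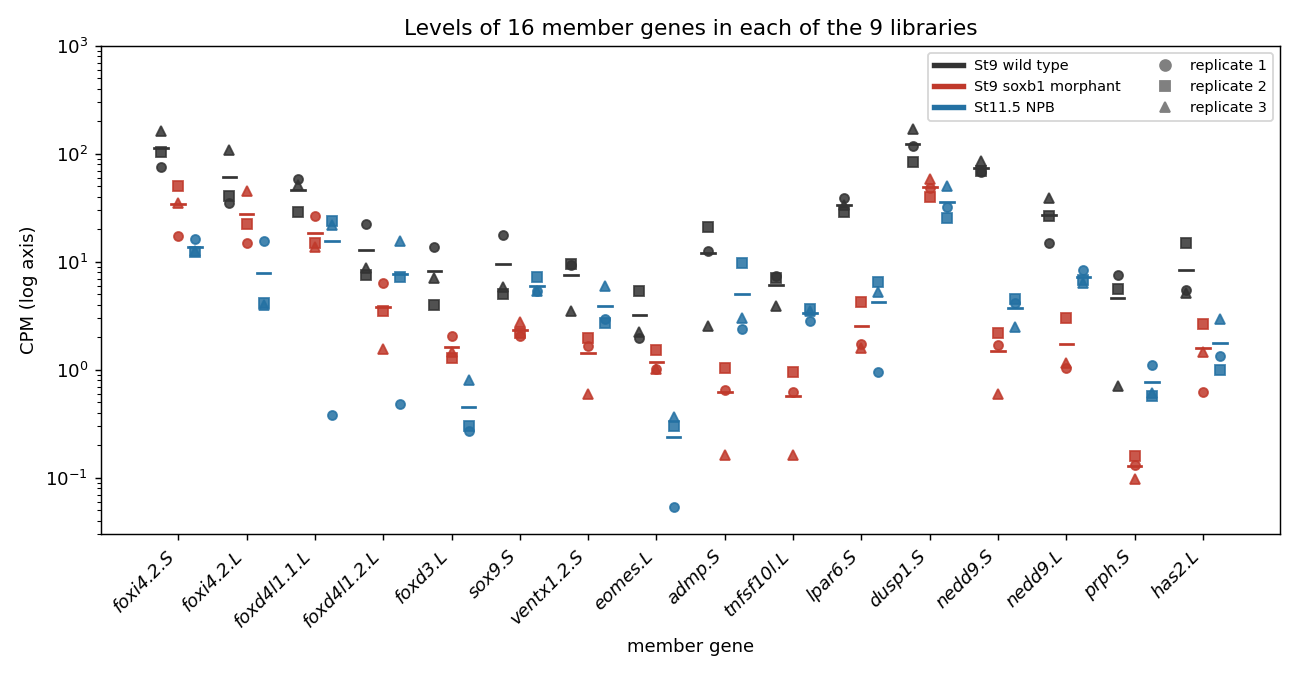
CPM on a log axis of 16 member genes in St9 wild type (black), St9 soxb1 morphants (red) and St11.5 NPB (blue); symbols mark replicate numbers and horizontal bars the group means. The wild-type values of foxd3.L and nedd9.S all lie above their morphant and NPB values, whereas for sox9.S, ventx1.2.S and admp.S the blue points reach the black ones.

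The 3 ligands and receptors shared deep morphant reductions, to between 5.14% and 9.52% of wild type, and kept more in NPB. The BMP-family ligand admp.S was at 12.7, 21.0 and 2.56 CPM in wild type and at 0.656, 1.04 and 0.164 CPM in morphants. Its wild-type libraries spanned a wide range, yet the pairs gave like ratios of 5.18%, 4.95% and 6.43%. The morphant values came from 20, 33 and 5 counts, so this likeness carries little precision. The NPB levels of admp.S were 2.39, 9.81 and 3.05 CPM, which overlapped with wild type. The TNF-family gene tnfsf10l.L was at 7.33, 7.03 and 3.87 CPM in wild type, 0.624, 0.947 and 0.164 in morphants and 2.85, 3.67 and 3.48 CPM in NPB. The lysophosphatidic acid receptor lpar6.S was at 39.0, 29.2 and 33.8 CPM in wild type, 1.74, 4.23 and 1.61 in morphants and 0.949, 6.47 and 5.3 CPM in NPB. All wild-type values of lpar6.S lay far above the others, while its morphant and NPB values overlapped.

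Genes of adhesion, cytoskeleton and matrix included some of the deepest reductions. The scaffold protein Nedd9 of the Cas family relays signals from focal adhesions, and both of its copies were members. The level of nedd9.S was 68.2, 69.9 and 85.8 CPM in wild type, 1.71, 2.21 and 0.592 in morphants and 4.12, 4.54 and 2.48 CPM in NPB. For nedd9.L the wild-type values were 14.9, 26.8 and 39.2 CPM, the morphant values 1.05, 3.0 and 1.15 CPM and the NPB values 8.38, 6.84 and 6.39 CPM. In both copies the 3 groups did not overlap, with NPB between morphant and wild type, although nedd9.L kept 26.7% of its wild-type mean in NPB and nedd9.S 4.97%. The adaptor sh2d3c.S, whose protein family binds Cas proteins, was at 42.4% of wild type in morphants and 18.2% in NPB.

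The intermediate filament gene prph.S was at 7.64, 5.64 and 0.703 CPM in wild type and at 0.131, 0.158 and 0.0986 CPM in morphants, the latter from 4, 5 and 3 counts. Its NPB levels were 1.11, 0.567 and 0.614 CPM. Wild-type replicate 3 lay within the range of the NPB libraries. Hyaluronan synthase has2.L, which makes a matrix polysaccharide, was at 5.47, 14.9 and 5.14 CPM in wild type, 0.624, 2.65 and 1.48 in morphants and 1.36, 1.0 and 2.99 CPM in NPB, with wild type above both other groups. In this group of 5 members the median level was 6.42% of wild type in morphants and 18.2% in NPB.

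Intracellular signalling genes numbered 8 and were mostly reduced by a moderate amount in morphants (median 42.4% of wild type). The MAP kinase phosphatase dusp1.S was at 119, 85.1 and 169 CPM in wild type, 48.6, 39.8 and 58.6 in morphants and 32.2, 25.5 and 50.9 CPM in NPB. Morphant and NPB levels of dusp1.S overlapped below all wild-type levels. The calmodulin gene calm2.L had the highest wild-type CPM, at 209, 223 and 148, and was at 111, 119 and 67 CPM in morphants and 78.2, 124 and 94.8 CPM in NPB. Its mean of 142 ± 31.4 TPM (transcript abundance corrected for length; SD, n = 3) was also the highest of the members in the deposited NPB values, where the median was 3.53 TPM.

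Small GTPase regulators differed in where they were lowest. The Ras-like gene rasl11b.S was at 27.8, 16.5 and 12.7 CPM in wild type, at 11.6, 7.80 and 6.44 in morphants, but at 0.298, 1.33 and 0.799 CPM in NPB (4.27% of wild type). The reverse held for LOC108698547, provisionally annotated as the Ral exchange factor rgl2. It was at 4.85, 6.25 and 0.927 CPM in wild type, its morphant libraries held 5, 0 and 0 counts, and its NPB levels were 0.759, 4.0 and 2.95 CPM. The gene stard13.L was at 30.5, 59.2 and 71.7 CPM in wild type, 7.12, 32.8 and 23.2 in morphants and 20.3, 13.1 and 7.96 CPM in NPB. The Rac GTPase-activating gene chn1.S was at 33.9% of wild type in morphants and 14.5% in NPB, the Rab exchange factor madd.S at 48.9% and 14.6%, and the pseudokinase trib2.S at 49.5% and 28.8%.

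Genes of mitochondria, translation, DNA repair and protein turnover formed a group of 10 with a median morphant level of 51.3% of wild type. The translation factor abcf1.L varied little between libraries, at 153, 142 and 143 CPM in wild type, 84.4, 84.3 and 79.9 in morphants and 57.9, 73.1 and 59.7 CPM in NPB. Dynamin-like dnm1l.S, which divides mitochondria, was at 67.1, 79.1 and 60.4 CPM in wild type, 29.5, 43.0 and 32.4 in morphants and 23.5, 34.7 and 37.2 CPM in NPB. The lysosomal Rab effector rilp.S was at 82.1, 115 and 74.9 CPM in wild type, 35.8, 39.9 and 24.7 in morphants, and 2.49, 8.61 and 8.91 CPM in NPB, so its NPB level was under every morphant level. The helicase recql4.L was at 47.9% of wild type in morphants and 34.4% in NPB, the ubiquitin-conjugating enzyme ube2r2 at 27.1% and 20.1%, the iron-sulfur assembly gene isca2.L at 45.7% and 26.3%, and the mitochondrial genes opa3.S and trub2.L at 58.4% and 31.2%, and 52.1% and 55.0%. The calpain proteases capn11.S and capn8.3.L were at 53.3% and 46.0%, and 51.8% and 39.2%. The reduction in opa3.S was nearly the same in each pair, to 58.1%, 58.1% and 58.9%.

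Of the 15 other members with a symbol, rgcc.L, a regulator of the cell cycle, was at 200.4, 193 and 181 CPM in wild type, 60.4, 94.7 and 26.7 in morphants and 6.94, 27.4 and 11.1 CPM in NPB. The phosphate cotransporter gene slc34a2.L had the lowest NPB level relative to wild type, 3.32%, with 4.11, 12.9 and 0.607 CPM in wild type, 0.624, 2.08 and 0.329 in morphants and 0, 0.40 and 0.184 CPM in NPB. Its wild-type replicate 3 was below morphant replicates 1 and 2. The gene apold1.L was at 7.40, 4.19 and 2.65 CPM in wild type, 1.02, 0.0947 and 0.0986 in morphants and 0.217, 3.47 and 2.48 CPM in NPB. The zinc finger genes zmynd19.L and znf277.L were at 18.8% and 45.3% of wild type in morphants and at 12.9% and 36.3% in NPB. For fam115a-like.L, 1 wild-type library was at 1.99 CPM and the others at 104 and 41.3 CPM, with the paired morphant library also low (0.758 CPM), and without replicate 1 of both groups its NPB mean was 1.2 times wild type. The histidine ammonia-lyase gene hal.2.L was at 9.89 CPM in NPB replicate 1 and at 1.40 and 1.13 CPM in the others, so its NPB mean rested mainly on 1 library. The rest of this group were zpd.L, tmx4.L, r3hdm1.S, taf5l.L, fam110c.S, lgalsl.S, adprh and sec14l3.L, with morphant levels between 25.2% (sec14l3.L) and 56.5% (adprh) of wild type and NPB levels between 12.9% (r3hdm1.S) and 59.7% (taf5l.L).

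The 15 remaining members had no gene symbol. LOC108719547 was at 164, 148 and 41.6 CPM in wild type, 16.6, 17.6 and 2.56 in morphants and 5.94, 12.3 and 10.9 CPM in NPB. Its neighbour LOC108719533, with no gene between them in RefSeq's v10.1 table, had a like pattern, at 61.4, 44.5 and 19.7 CPM in wild type, 4.1, 5.27 and 3.25 in morphants and 2.93, 5.41 and 4.71 CPM in NPB. Both were lowest in replicate 3 at stage 9. LOC108711414 was at 11.7, 18.2 and 2.91 CPM in wild type, 0.0328, 0.726 and 0 in morphants and 0.108, 1.47 and 1.23 CPM in NPB. LOC108706483 (27.1, 24.5 and 14.2 CPM in wild type) and Xelaev18037842m (6.51, 7.31 and 8.56 CPM) were at 4.48% and 5.83% in NPB. MGC69154 was at 54.7 ± 9.90 CPM in wild type, 27.6 ± 5.83 CPM in morphants and 31.3 ± 1.54 CPM in NPB (SD, n = 3). The others were LOC108711704, LOC108714950, LOC108715703, LOC108696320, LOC108716466, XB5896631.L, Xelaev18033527m, Xelaev18018096m and Xelaev18003712m, at between 17.8% and 53.1% of wild type in morphants and between 12.7% and 57.0% in NPB. Xelaev18003712m was listed at 0 TPM in NPB although it had counts there, so the TPM table gave no level for it.

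Which of the reduced states was lower depended on the gene and, for some members, on the scaling. By the mean, NPB was below morphants for 40 members and above for 24 in CPM. After TMM scaling it was below for 26 and above for 38. With edgeR, 12 members (18.8%) were called higher in NPB than in morphants and 5 (7.81%) lower, against 26.7% of 22221 genes higher and 26.6% lower. The higher members were nedd9.S, nedd9.L, admp.S, prph.S, tnfsf10l.L, sox9.S, ventx1.2.S, calm2.L, taf5l.L, MGC69154, LOC108711704 and LOC108698547, and the lower ones were rilp.S, rasl11b.S, r3hdm1.S, Xelaev18033527m and Xelaev18037842m. With library totals alone the split turned to 6 higher and 17 lower (16.3% and 44.3% of all genes). The libraries of both groups entered the rule, so this is again a description.

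The other subgenome copy of a member was not used to choose it, except where it was a member itself. Of the 46 members with a suffix, 34 had 1 row of the other copy. Of these partners 4 were members, in the nedd9 and foxi4.2 pairs, so the rule itself made them lower. Of the 23 other partners that reached 3 CPM in wild type, 22 were lower in morphants than in wild type by the mean, as were 50.8% of all rows at that minimum, and 5 (21.7%) met the morphant condition, against 0.999% of those rows. With the replicate block in edgeR, 18 of the 26 non-member partners tested fell in morphants (69.2%) and 1 rose, where 6.71% of all genes fell. Over all partners, including the 4 that were members, 21 fell with the block. Without it edgeR called 0, against 0.0% of all genes, and DESeq2 called 9 lower, against 1.19%. At an unadjusted edgeR p under 0.05 there were 16, where 3.15% of all genes were lower. The study's methods do not say how reads that both copies share were counted, and their part in this count was not tested.

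Among these partners, prph.L fell by 3.13 on the log2 scale (edgeR adjusted p = 8.5e-07), from 5.91 ± 5.60 to 0.641 ± 0.485 CPM (SD, n = 3), and admp.L fell by 2.69 (edgeR adjusted p = 6.67e-07). The partner stard13.S fell by 2.36 and foxd4l1.1.S by 2.16 (edgeR adjusted p = 0.000117 and 0.000384). Other partners had little change: dnm1l.L had a log2 fold change of -0.09 (edgeR adjusted p = 0.507), chn1.L of -0.16 (0.691) and sox9.L of 0.00 (0.996). The partner rasl11b.L rose by 0.35 on the log2 scale (edgeR adjusted p = 0.0258), the opposite of rasl11b.S. Copies were therefore often, but not always, lower together at stage 9.

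In NPB some partners rose, at a share near that of all genes. Of 30 partners tested against wild type with edgeR, 12 (40.0%) fell and 7 (23.3%) rose, against 26.7% and 26.9% of all genes. The 30 included the 4 partners in the nedd9 and foxi4.2 pairs, which the rule itself made lower in NPB. All 4 were among those that fell, so nothing is read from the share that fell. The partners that rose were stard13.S, admp.L, prph.L, chn1.L, sox9.L, trib2.L and has2.S. Of these, sox9.L and has2.S were below 3 CPM in wild type (0.991 and 0.406 CPM), and has2.S reached a mean of 1.16 CPM in NPB. With library totals alone 18 partners fell and 5 rose, the latter all but trib2.L and has2.S, where 44.3% of all genes fell and 16.5% rose. The 18 again included the nedd9 and foxi4.2 pairs. The BMP ligand copy admp.L went from 5.64 ± 2.91 CPM in wild type to 39.9 ± 6.77 CPM in NPB (log2 fold change 3.53, edgeR adjusted p = 0.000233), while admp.S was at 42.0% of its wild-type mean. The partner stard13.S went from 20.2 ± 11.4 to 92.3 ± 5.32 CPM (log2 fold change 2.90, edgeR adjusted p = 0.000487), and prph.L from 5.91 ± 5.60 to 22.5 ± 9.22 CPM (log2 fold change 2.66, edgeR adjusted p = 0.0181). In contrast, rgcc.S fell with its partner, from 92.6 ± 19.7 to 4.27 ± 2.03 CPM (log2 fold change -3.77, edgeR adjusted p = 0.000149), and dnm1l.L fell from 89.2 ± 6.71 to 21.3 ± 5.58 CPM (log2 fold change -1.39, edgeR adjusted p = 0.00091), where dnm1l.S had a log2 fold change of -0.43 (edgeR adjusted p = 0.104). For admp, stard13, prph and trib2, both copies fell in morphants with the block, whereas in NPB the partner rose. Of these members stard13.L (log2 fold change -1.23, edgeR adjusted p = 0.0461) and trib2.S (-1.10, adjusted p = 0.00724) fell in NPB. In contrast, admp.S (-0.58, adjusted p = 0.561) and prph.S (-1.88, adjusted p = 0.0809) did not pass the test. A lower NPB mean of the member was a condition of the rule.

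**Figure D4:**
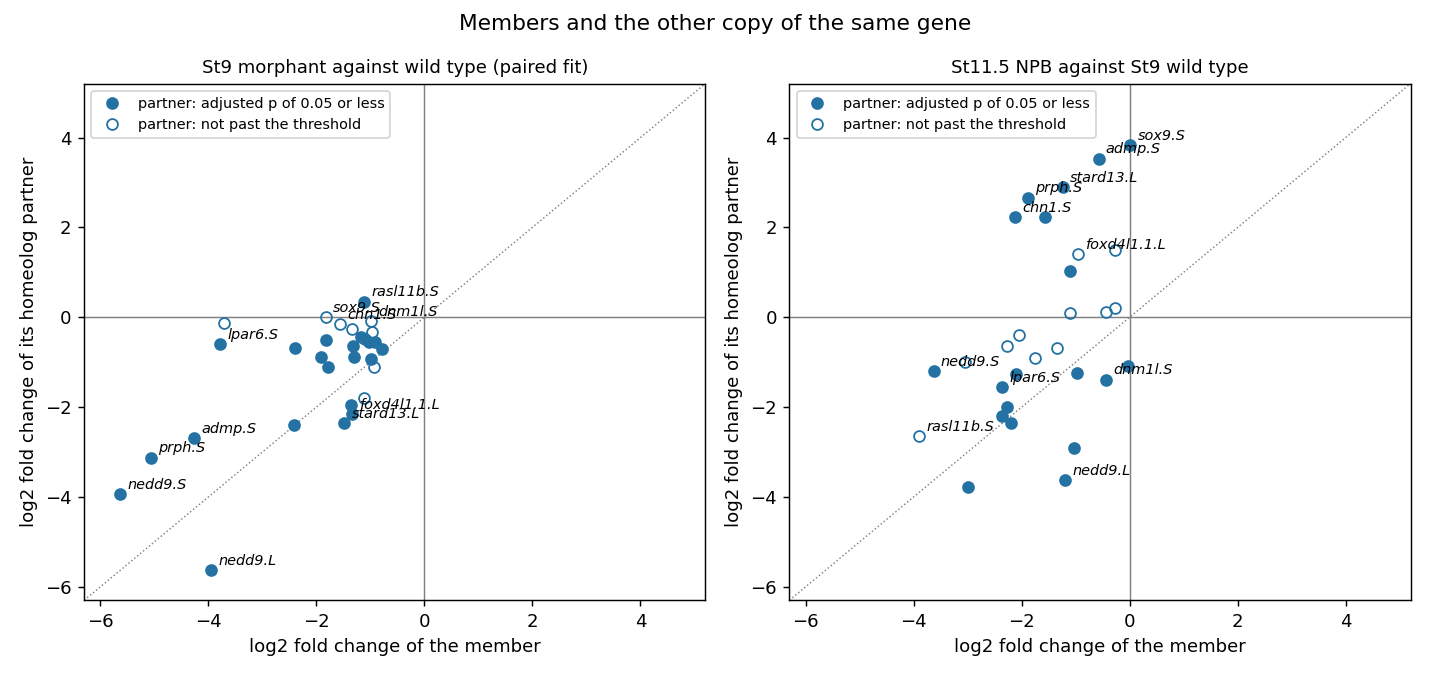
Log2 fold change of the member (horizontal) and of its other subgenome copy (vertical), for St9 morphants against wild type with the replicate block (left) and for NPB against wild type (right), in 30 pairs each; filled points are partners at an edgeR adjusted p of 0.05 or less and the dotted line is equality. At left nearly all points lie below the horizontal zero line, and at right the 7 filled points above it are the copies that rose in NPB. The nedd9 and foxi4.2 pairs appear once from each copy.

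Lists of related genes were counted in the morphant fit with the replicate block, where 6.71% of all genes fell and 5.75% rose with a median log2 fold change of 0.01. Without the block no row of these lists was called. In the border list, which holds no member, 11 of 25 rows tested fell in morphants and 1 rose, with a median of -1.02. Its sum was between 315 and 459 CPM in morphants, against 640 to 715 CPM in wild type. In a list of FGF and MAP kinase feedback genes, 3 of 24 non-member rows tested fell in morphants (dusp1.L, dusp5.S and spry2.S) and 2 rose (dusp6.L and fgf8.S), with a median of -0.06. The dusp rows thus went both ways, with dusp5.S going from a mean of 32.1 CPM to 17.5 CPM in morphants and dusp6.L higher. In a list of ventral and BMP-response genes, 7 of 34 non-member rows fell, among them ventx1.2.L, ventx1.1.L, ventx1.1.S and ventx2.2.S, and 2 rose (id3.L and id3.S), with a median of -0.11. In an epidermal list, 5 of 36 non-member rows fell and 7 rose, with a median of 0.18. In a neural crest list, 0 of 9 fell and 5 rose, including snai1.S, with a median of 0.29. The members on that list were foxd3.L, which fell, and sox9.S, which did not pass the test with the block (log2 fold change -1.82, edgeR adjusted p = 0.14). In a list of adhesion and cytoskeletal genes, 5 of 28 non-member rows fell, including prph.L and cdh1.S (a mean of 19.5 CPM against 9.49 CPM in morphants), and 0 rose, with a median of -0.07. In the list of mesoderm and endoderm markers, which holds the member eomes.L, 3 of 25 non-member rows fell (eomes.S, cdx1.S and foxa1.S) and 10 rose, among them the endodermal factor genes sox17b.1.L and sox17b.1.S, with a median of 0.20. In a list of pluripotency and blastula genes, which holds foxd3.L, 7 of 32 non-member rows fell and 6 rose, with a median of 0.00. Those that fell included lin28a.L and lin28a.S, which encode an RNA-binding protein, and those that rose pou5f3.1.L and pou5f3.1.S. In NPB against wild type, 26.7% of all genes fell and 26.9% rose with edgeR. Among non-member rows, 3 of 37 fell and 20 rose in the epidermal list, and 4 of 30 and 15 in the adhesion list. The counts were 11 of 39 and 17 in the ventral list, and 7 of 32 and 11 in the pluripotency list. They were 2 of 9 and 4 in the crest list, 7 of 26 and 5 in the FGF list, and 12 of 28 and 8 for mesoderm and endoderm.

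Near the limits of the rule, members and other rows had like values. At the minimum level, LOC108716466 (3.16 CPM) and eomes.L (3.21 CPM) were inside and Xelaev18004675m (2.96 CPM) and cdkn2c.L (2.92 CPM) outside. By the highest morphant ratio of the pairs, hal.2.L (0.598) and Xelaev18033527m (0.593) were inside and LOC100037197 (0.604) and LOC108710892 (0.605) outside. By the NPB ratio, LOC108698547 (0.642) and sox9.S (0.627) were inside and calm2.S (0.712) and cdc73.L (0.728) outside.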

How the data were processed

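Animal pole explant RNA was sequenced in 9 libraries. The authors trimmed reads with fastp, mapped them on genome version 9.2 using STAR, and counted them over genes using HTSeq; the deposited counts are not normalized, and tool versions and the strand setting of counting were not given in the sources used here. TPM values, deposited for NPB alone, were made by the authors with RSEM. A deposited table of the authors' own comparison (fold changes and p-values) was not used. Tables were joined by row after a check that names were the same at every row. Groups and replicate numbers came from sample titles.

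CPM used column sums. Counts were tested, 2 groups at a time, with edgeR 4.0.16 (R 4.3.3; filterByExpr, TMM, robust quasi-likelihood F test) and Benjamini-Hochberg adjustment over all genes tested, called at 0.05. The fits were also run on simulated counts with a replicate effect shared by same-numbered libraries in every contrast. The NPB libraries showed no such effect, so nothing is read from that run. Same-numbered wild-type and morphant libraries were taken as pairs since every pair's correlation was over 0.1, whereas NPB libraries were not paired. DESeq2 1.42.0, other normalizations, filters and left-out libraries were alternatives; those that combine the block with DESeq2 or another normalization, and those for the partners' calls, were chosen after seeing the data. Replicates differed by a chi-square statistic of 44.7 to 110 per gene and were kept apart. Without the block, p-values measure the spread between these samples. With it, they measure the spread that is left after differences between replicate numbers are taken out. Floors of 3 counts cover counting error only.

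Members and gene lists were chosen with earlier results of these data known, and role groups after values were seen. Named were the members highest in wild type or NPB, lowest relative to wild type in either condition, in a list, with a member as partner, or at a limit; others were chosen after their values were seen. RefSeq v10.1 held 54 of the 64 members and was used for neighbours only.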

Additional observations from a re-analysis of the deposited data

How the results depend on the processing

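The rule gave 64 members, and a minimum of 10 CPM gave 41, a morphant limit of 0.5 gave 29 and the morphant condition on group means gave 127. With the counts of .L and .S copies summed, 44 genes met the rule. Of these, 43 had a copy among the members, and 19 other genes with a member no longer met it. Without replicate 1, 2 or 3 it gave between 72 and 101, the highest without replicate 3, where 63 of the 64 were kept. Leaving out replicate 1 turned the NPB to wild-type ratio above 1 for fam115a-like.L (1.2), foxd4l1.2.L (1.40) and sox9.S (1.15), whose lowest ratios with a replicate left out were 0.373, 0.258 and 0.456. With a replicate left out, this ratio moved by over 1.5 times for 21 of the 64 members and the morphant ratio for 7. For morphant against wild type, the 0 members called without pairing became 60 with the replicate block (57 to 60 with a pair left out, 60 with RLE size factors or column sums, 64 in DESeq2 with the block), 46 in DESeq2, 3 with no filter beyond 1 count, 1 with at least 10 counts in every library and 3 in a fit of all 9 libraries, and 0 to 1 with a library left out. For NPB against wild type the 40 calls became 22 at an adjusted p of 0.01, 32 with a replicate block and 27 to 35 with a library left out. For NPB against morphants the 17 calls became 9 at 0.01, 17 with a replicate block, and 15 to 20 with a library left out. NPB replicate numbers did not pair. The libraries of all these contrasts entered the rule, and for many of these settings no share of all genes is given. The counts of members called therefore show how calls depend on the setting and nothing about the members. Partners called lower in morphants with the block numbered 21, and 0 without the block, with 16 to 23 when a pair was left out. These counts cover all partners, also those that the rule chose as members, and 18 of the 21 were not members. At these depths, members under 1 CPM had few counts, so ratios such as that of LOC108698547 in morphants carry little precision. The causes were not tested.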
